A study of Homo sapiens with 6 samples.

Results

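Transcripts of 9 genes of fatty acid oxidation were followed in TGF-β1-stimulated HK2 cells with and without overexpression of SIRT4. The genes are MLYCD, CPT1A, CPT2, ACADM, ACADVL, HADHA, HADHB, PPARA and PPARGC1A. They were set by symbol, by a rule that uses no measured value, all 9 have an entry in both deposited tables, and the tables hold 38100 genes in all. MLYCD is at the head of the list because its protein is a known substrate of SIRT4. HK2 is an immortalized line derived from the proximal tubule of a human kidney. The cells received an adenovirus, either with an empty vector (AdCtrl) or with SIRT4 (AdSIRT4), and both groups were then exposed to TGF-β1. Each group has 3 samples and the genotype label of all 6 is WT. In the cell line field the number after HK differs from sample to sample, whereas every title reads HK2, and all were taken to be HK2. Since the controls were stimulated with TGF-β1 as well, the comparison describes SIRT4 overexpression under TGF-β1, and a response to TGF-β1 itself cannot be read from it. The study's methods speak of independent experiments, its checklist describes replicates of cell experiments as technical, and no label names separate cultures, so the p-values below may measure only technical spread.

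Fatty acids enter mitochondria as carnitine esters and are then shortened in repeated rounds of oxidation, hydration, oxidation and thiolysis that yield acetyl-CoA. Entry is held back by malonyl-CoA, which acetyl-CoA carboxylases make and malonyl-CoA decarboxylase, the product of MLYCD, removes. The proximal tubule relies heavily on this pathway for ATP, and loss of it is a known feature of the fibrotic kidney. SIRT4 is a mitochondrial sirtuin that is known to deacetylate malonyl-CoA decarboxylase, a modification of the protein that transcript counts do not measure.

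The promoters of 3 members are shown, MLYCD because it encodes the SIRT4 substrate and HADHA with HADHB because these genes start back to back and their transcripts are compared as a pair below. The sequences are the 250 bases before the transcript start in RefSeq on GRCh38.p14, at chr16:83898865-83899114 on the + strand for MLYCD, chr2:26244633-26244882 on the - strand for HADHA and chr2:26244689-26244938 on the + strand for HADHB. Capitals mark a GC box (GGGCGG, or CCGCCC for the other strand) or a CCAAT box (CCAAT, or ATTGG for the other strand).
MLYCD: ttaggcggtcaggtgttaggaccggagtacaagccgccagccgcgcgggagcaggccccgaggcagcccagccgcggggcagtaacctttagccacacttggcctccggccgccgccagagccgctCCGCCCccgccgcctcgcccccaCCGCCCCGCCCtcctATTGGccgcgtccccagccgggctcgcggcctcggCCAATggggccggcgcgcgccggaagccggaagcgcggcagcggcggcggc
HADHA: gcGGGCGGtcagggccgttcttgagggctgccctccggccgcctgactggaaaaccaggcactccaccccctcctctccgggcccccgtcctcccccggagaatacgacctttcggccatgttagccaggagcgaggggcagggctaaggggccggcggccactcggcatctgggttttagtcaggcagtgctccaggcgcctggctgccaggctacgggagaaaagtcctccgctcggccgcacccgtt
HADHB: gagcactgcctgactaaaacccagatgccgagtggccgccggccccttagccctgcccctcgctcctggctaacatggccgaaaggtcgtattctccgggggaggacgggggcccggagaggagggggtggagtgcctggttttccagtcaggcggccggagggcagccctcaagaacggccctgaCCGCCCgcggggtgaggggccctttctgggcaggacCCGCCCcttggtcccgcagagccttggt

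The HADHA and HADHB starts were 306 bases apart on opposite strands, and their windows shared 194 bases. The MLYCD window held 3 GC boxes, of which 2 overlapped by a base, and a CCAAT box on each strand. The HADHA window held 1 GC box and the HADHB window held 2. The HADHA box lies in the shared bases and is 1 of the HADHB boxes read on the other strand. Over both strands, RefSeq windows of all 9 members (12 windows) held a GC box in 7 members and a CCAAT box in 2, MLYCD and PPARA. Of the 35116 promoter windows of all genes, 42.6% held a GC box and 32% a CCAAT box. For every motif, a member counts if any of its windows holds it, whereas the shares of all genes are per window. The 2 measures are therefore not directly comparable, and the box shared by HADHA and HADHB counts for both. A full PPAR element (a direct repeat of AGGTCA with 1 base between the copies) was found in 0 members and in 0.0171% of all windows, and an ERR element (TNAAGGTCA) in 0 members and in 0.854% of all windows. The NRF1 element (GCGC, any base, then TGCGC) occurred in 1 member, PPARA, and in 5.07% of all windows. These are matches of letters in short windows and not measured binding sites.

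Sequencing depth ranged from 41537353 to 85684748 counts per sample, and 17720 genes had enough counts for a test. Values of single samples are listed in the order of replicates 1, 2 and 3 throughout, in CPM, which are counts scaled to the library total after TMM normalization. SIRT4 was at 0.573, 1.11 and 1.11 CPM in AdCtrl cells and at 51.2, 92.7 and 84.0 CPM in AdSIRT4 cells, so the overexpression is visible in every sample. Of 10 epithelial markers, 9 were at 1 CPM or more in every sample. The list summed to 1860 to 1893 CPM in AdCtrl and 1788 to 2347 CPM in AdSIRT4 cells. The exception was CDH1, which encodes E-cadherin. It was at 0.869, 0.518 and 0.603 CPM in AdCtrl and at 0.565, 0.777 and 0.504 CPM in AdSIRT4 cells. Of 10 markers of differentiated proximal tubule, only 3 (GGT1, SLC3A1 and SLC5A2) reached 1 CPM in every sample. The list of 10 summed to 238.5 to 258.2 CPM in AdCtrl and 219.5 to 230.4 CPM in AdSIRT4 cells. Most of this was GGT1, at 247.2, 238.5 and 226.6 CPM in AdCtrl and at 210.2, 219.7 and 211.3 CPM in AdSIRT4 cells. LRP2, SLC22A6 and HNF4A were at or near 0, and CUBN, ANPEP and AQP1 were at 0.273 CPM or less. Fibroblast markers summed to 41.7 to 45.1 and 39.97 to 40.8 CPM with COL3A1 at 0 counts in every sample, endothelial markers to 0.425 to 0.588 and 0.411 to 0.742 CPM, and leukocyte markers to 34.3 to 39.6 and 38.3 to 49.4 CPM with CD3E and MS4A1 at 0. The fibroblast sum was mostly COL1A1 and LUM. COL1A1 was at 24.8 to 26.6 CPM in AdCtrl and 17.7 to 24.5 CPM in AdSIRT4 cells. LUM was at 15.3 to 17.3 CPM in AdCtrl and 14.5 to 22.0 CPM in AdSIRT4 cells. The leukocyte sum was mostly CD68, at 31.6 to 37.0 CPM in AdCtrl and 36.3 to 46.5 CPM in AdSIRT4 cells. AdSIRT4 replicate 1 stood apart from the other libraries. Relative to AdSIRT4 replicates 2 and 3, its log2 CPM was higher by a median of 0.67 in the 1747 genes with the shortest transcripts (up to 1.34 kb) and differed by a median of -0.76 in the 1747 genes with the longest (from 8.84 kb). Results are therefore given with and without this library.

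None of the 9 genes passed the test between AdSIRT4 and AdCtrl cells. With edgeR's quasi-likelihood test over all genes, 0 of 9 members had an adjusted p under 0.05, beside 0.0113% of the tested genes, which are 2 genes, SIRT4 and ADAMTS1. At an unadjusted p under 0.05 the members again numbered 0, beside 7.93% of the tested genes. DESeq2 called 0 members (0.643% of the genes it tested), and edgeR with a replicate block called 0 (0.00564%). The members' log2 fold changes ran from -0.49 for PPARA to 0.04 for HADHB with a median of -0.13, and the median over all tested genes was 0.02. The fold change was below 0 for 7 of 9 members and for 46.6% of all tested genes. MLYCD and PPARA were lower in every AdSIRT4 sample than in any AdCtrl sample, which is 2 of 9 members, beside 9.77% of all tested genes. In cultured cells sequenced in bulk, fewer expressing cells and less RNA per cell cannot be told apart.

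**Figure D1:**
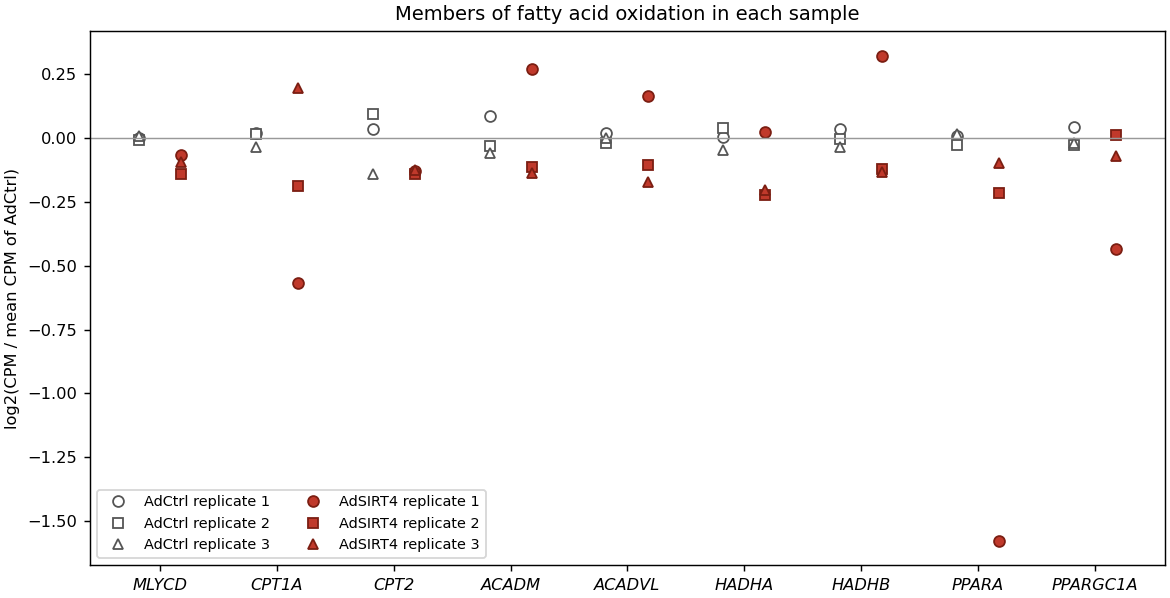
Level of each member in each sample as log2 of its CPM over the mean CPM of the AdCtrl samples, with open symbols for AdCtrl and filled symbols for AdSIRT4 and the shape giving the replicate number. The AdSIRT4 samples of MLYCD and PPARA all lie below the AdCtrl samples, and AdSIRT4 replicate 1 (filled circles) is the highest sample for ACADM, ACADVL and HADHB and the lowest for CPT1A, PPARA and PPARGC1A.

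Without AdSIRT4 replicate 1, HADHA passed the test. In that fit of 3 AdCtrl against 2 AdSIRT4 samples, 1 of 9 members had an adjusted p under 0.05 (edgeR), beside 6.71% of the 18287 genes tested in it (3.34% in the lower direction), and a single member is close to what that background gives. An unadjusted p under 0.05 was reached by 5 of 9 members, beside 24.3% of the genes. The fold change was below 0 for 8 of 9 members, the exception being CPT1A, and for 50.6% of all genes in that fit. CPT1A, PPARA and PPARGC1A moved up toward 0 or past it when the library was left out, and ACADM, ACADVL, HADHA and HADHB moved down. In AdSIRT4 replicates 2 and 3, 6 of 9 members (MLYCD, ACADM, ACADVL, HADHA, HADHB and PPARA) lay below every AdCtrl replicate, beside 20.7% of all tested genes. The median log2 fold change of the 9 members without replicate 1 was -0.13, as with all samples, with the median of all genes at -0.003. When limma voom with sample quality weights kept this library at a weight of 0.079 (0.984 to 2.92 for the others), HADHA was again the 1 member called, beside 9.51% of all genes.

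**Figure D2:**
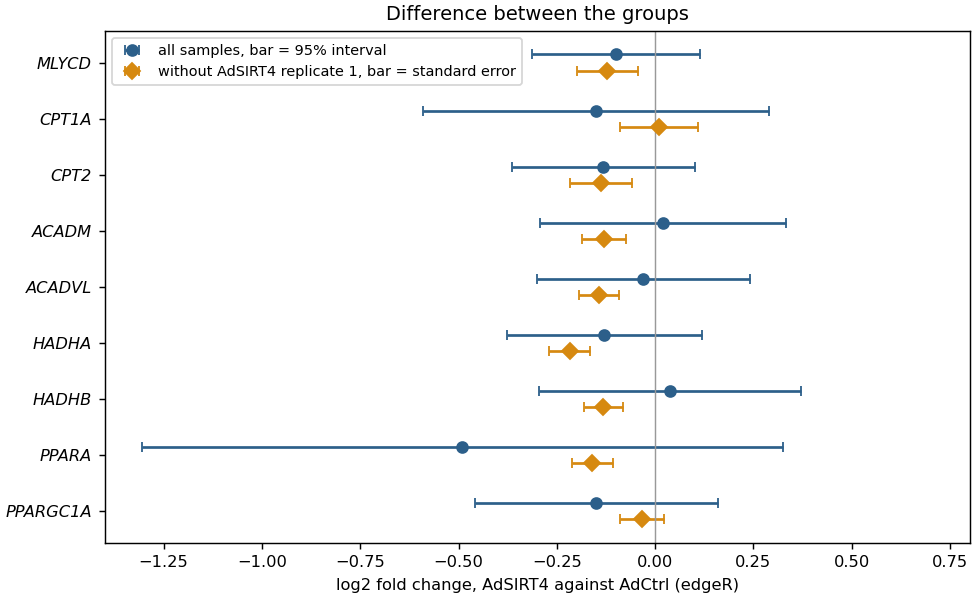
Log2 fold change of each member, AdSIRT4 over AdCtrl, from edgeR, with all 6 samples (blue, 95% interval) and without AdSIRT4 replicate 1 (orange, standard error). All intervals with 6 samples include 0, the widest being that of PPARA, and without that replicate all values but that of CPT1A (0.01) lie below 0.

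MLYCD, at chr16:83899126-83927026 on the + strand in GENCODE v29, encodes the malonyl-CoA decarboxylase that relieves the block on carnitine palmitoyltransferase 1. Its level was 13.1, 13.1 and 13.2 CPM in AdCtrl and 12.5, 11.9 and 12.3 CPM in AdSIRT4 cells, from 489 to 1026 counts per sample. All AdSIRT4 samples lay slightly below all AdCtrl samples, and the groups did not overlap. It differed by -0.10 on the log2 scale (95% interval -0.31 to 0.11, standard error 0.090), and edgeR's adjusted p was 0.773. On the linear scale this is 0.933 times the control level, with an interval from 0.805 to 1.08. The two-sided exact permutation test on log2 CPM gave p = 0.1, the smallest value that 3 samples against 3 allow. AdSIRT4 replicate 1 was the highest of the AdSIRT4 samples here, and without it the log2 fold change was -0.12 (edgeR, adjusted p = 0.361). The annotation places AC009119.2 over part of MLYCD on the same strand, a gene without a row of its own in the count table.

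The carboxylases that make malonyl-CoA are ACACA, the cytosolic enzyme of fatty acid synthesis, and ACACB, the form bound to mitochondria. ACACA was at 145.5, 137.3 and 148.2 CPM in AdCtrl cells and at 55.3, 139.4 and 141.9 CPM in AdSIRT4 cells. ACACB was at 29.2, 29.2 and 27.1 CPM in AdCtrl and at 13.8, 28.0 and 24.0 CPM in AdSIRT4 cells. Both carboxylases were low in AdSIRT4 replicate 1 and otherwise within or near the range of the controls. The deposited tables imply lengths of 11.2 kb for ACACA and 10.4 kb for ACACB. Both fall in the class from 8.84 kb, where replicate 1 differed from the other AdSIRT4 replicates by a median of -0.76 over all genes. The log2 fold changes of -0.35 for ACACA and -0.37 for ACACB did not pass (edgeR, adjusted p = 0.776 and 0.731). Without replicate 1 these fold changes were -0.04 and -0.14. On the scale of log2 FPKM, which divides by transcript length, the ratio of MLYCD to the sum of ACACA and ACACB was -4.18, -4.11 and -4.18 in AdCtrl and -2.88, -4.26 and -4.19 in AdSIRT4 cells. Only replicate 1 departed from the rest. The group difference in this ratio was 0.38 (two-sided exact permutation test, p = 1.0) and -0.07 without that replicate.

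CPT1A, at chr11:68754620-68844410 on the - strand, encodes the liver form of carnitine palmitoyltransferase 1, the malonyl-CoA-sensitive enzyme that joins long-chain fatty acids to carnitine at the outer membrane. Its level was 21.3, 21.2 and 20.5 CPM in AdCtrl and 14.1, 18.4 and 24.0 CPM in AdSIRT4 cells. The AdSIRT4 samples spread on both sides of the narrow AdCtrl range. Between the groups the log2 fold change was -0.15 (95% interval -0.59 to 0.29) with an adjusted p of 0.813 from edgeR, and it was 0.01 without AdSIRT4 replicate 1.

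CPT2, at chr1:53196429-53214197 on the + strand, encodes the inner-membrane enzyme that returns the acyl group to CoA. It was measured at 26.5, 27.7 and 23.5 CPM in AdCtrl and 23.7, 23.5 and 23.7 CPM in AdSIRT4 cells. The AdSIRT4 samples agreed closely and sat at the level of the lowest control. Its log2 fold change was -0.13 (95% interval -0.37 to 0.10), with an adjusted p of 0.745 from edgeR, and -0.14 without replicate 1. SLC25A20, the carrier that moves acylcarnitines between these enzymes, had a log2 fold change of -0.03 (95% interval -0.44 to 0.37), and of -0.08 without replicate 1. The log2 FPKM ratio of CPT1A to CPT2 differed by -0.03 between the groups (two-sided exact permutation test, p = 0.9), and by 0.16 without replicate 1.

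ACADVL, at chr17:7217125-7225273 on the + strand, encodes the acyl-CoA dehydrogenase that opens the cycle for very long chains. It was measured at 171.4, 166.9 and 169.0 CPM in AdCtrl and 189.8, 157.2 and 150.1 CPM in AdSIRT4 cells. AdSIRT4 replicate 1 was the highest sample and the other AdSIRT4 replicates were the lowest, so the groups overlapped. For ACADVL the log2 fold change was -0.03 (95% interval -0.30 to 0.24; edgeR, adjusted p = 0.934) with all samples and -0.14 (adjusted p = 0.118) without replicate 1.

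ACADM, at chr1:75724347-75787575 on the + strand, encodes the dehydrogenase for medium chains. It reached 79.4, 73.3 and 71.9 CPM in AdCtrl and 90.4, 69.3 and 68.1 CPM in AdSIRT4 cells, again with replicate 1 the highest sample and the other AdSIRT4 replicates the lowest. With all samples its log2 fold change was 0.02 (95% interval -0.29 to 0.33; edgeR, adjusted p = 0.963). Without replicate 1 the sign turned, to -0.13 (adjusted p = 0.181). ACADM overlaps RABGGTB on the same strand and ACADVL overlaps DLG4 on the opposite strand, and no step that marks the strand is named in the library protocol, so reads in these stretches cannot be assigned with certainty.

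HADHA and HADHB encode the α and β subunits of the mitochondrial trifunctional protein, which carries out the last steps of each cycle on long chains. HADHA, at chr2:26190635-26244726 on the - strand, was at 189.0, 193.3 and 182.4 CPM in AdCtrl and at 191.5, 161.4 and 163.5 CPM in AdSIRT4 cells. HADHB, at chr2:26243170-26290468 on the + strand, was at 99.99, 97.3 and 95.3 CPM in AdCtrl and at 122.0, 89.8 and 88.9 CPM in AdSIRT4 cells. For both subunits, AdSIRT4 replicates 2 and 3 were the lowest samples. Replicate 1 was within the control range for HADHA and above it for HADHB.

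With all samples the log2 fold change of HADHA was -0.13 (95% interval -0.38 to 0.12; edgeR, adjusted p = 0.761) and that of HADHB was 0.04 (-0.30 to 0.37, adjusted p = 0.927). Without AdSIRT4 replicate 1, HADHA fell by 0.22 on the log2 scale (standard error 0.052; edgeR, adjusted p = 0.0313). In that fit HADHB had a log2 fold change of -0.13 (adjusted p = 0.140), which did not pass. In limma voom with quality weights the values were -0.21 for HADHA (adjusted p = 0.0319) and -0.12 for HADHB (adjusted p = 0.205). When the trend on transcript length was removed from each library with the replicate block kept, HADHA stood at -0.15 with an adjusted p of 0.436 from edgeR. Its decrease is thus called only in the fits that drop or down-weight replicate 1.

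The log2 FPKM ratio of HADHA to HADHB compares the paired genes within each sample. It was 0.37, 0.43 and 0.40 in AdCtrl and 0.11, 0.29 and 0.34 in AdSIRT4 cells. Every AdSIRT4 sample was lower than every AdCtrl sample, also when replicate 1 is set aside. The difference was -0.16 with all samples and -0.09 without replicate 1, and the two-sided exact permutation test gave p = 0.1 (0.3 after adjustment over 3 ratios), with 0.1 the smallest p possible. The annotated spans of the genes overlap by 1557 bases on opposite strands, where reads cannot be told apart without strand. How often the ratio of other gene pairs separates the groups was not tested. HADHA (3.35 kb) and HADHB (2.30 kb) fall in different length classes. Replicate 1 differed from the other AdSIRT4 replicates by a median of 0.06 in the class of HADHA and 0.31 in that of HADHB. What part length plays in this ratio was not tested.

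PPARA, at chr22:46150521-46243756 on the + strand, encodes the nuclear receptor that drives transcription of many fatty acid oxidation genes. It was at 80.6, 78.7 and 81.2 CPM in AdCtrl and at 26.9, 69.1 and 74.9 CPM in AdSIRT4 cells. All AdSIRT4 samples were below all AdCtrl samples, by far the most in replicate 1. For PPARA the log2 fold change was -0.49 with a wide 95% interval of -1.31 to 0.33 (edgeR, adjusted p = 0.741). Without replicate 1 it was -0.16 with a standard error of 0.052, and the adjusted p of 0.0890 from edgeR remained above the threshold. The value thus moved from -0.49 to -0.16 when this single library was left out.

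PPARGC1A, at chr4:23755041-23904089 on the - strand, encodes PGC-1α, the coactivator of PPARα and of mitochondrial biogenesis. It was at 49.9, 47.4 and 47.8 CPM in AdCtrl and at 35.8, 48.8 and 46.0 CPM in AdSIRT4 cells. Replicate 1 was low, and the other AdSIRT4 replicates lay within or just below the control range. The log2 fold change was -0.15 (95% interval -0.46 to 0.16; edgeR, adjusted p = 0.769), and -0.03 without replicate 1.

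The place of AdSIRT4 replicate 1 among the samples differed between members, and it moved with transcript length. Lengths were those implied by the deposited tables, from 2.30 kb for HADHB to 14.97 kb for MLYCD. Replicate 1 was the highest of the 6 samples for ACADM, ACADVL and HADHB, and the lowest for CPT1A, PPARA and PPARGC1A, which is 3 of 9 in each direction beside 36.6% of all tested genes in each. Its log2 CPM differed from the mean of the other AdSIRT4 replicates by 0.45 for HADHB, 0.40 for ACADM and 0.31 for ACADVL, genes of up to 2.57 kb. The differences were -0.57 for CPT1A (5.97 kb), -0.40 for PPARGC1A (7.15 kb) and -1.42 for PPARA (11.6 kb).

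MLYCD was the exception, with the longest transcript and a difference of only 0.05, while the median in its length class was -0.76. The annotation gives MLYCD a single coding transcript of 13.0 kb in 5 exons. Across the 17470 tested genes with a length, Spearman's rho between this deviation and length was -0.588, and across the 9 members it was -0.767. These are descriptions of 1 library, and genes are not independent replicates. What part length plays in any member's group difference was not tested beyond the fit that removes the trend. In that fit with the replicate block, 0 of 9 members passed, beside 0.0339% of all tested genes, and the log2 fold change of MLYCD was 0.07 and that of PPARA -0.46.

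**Figure D3:**
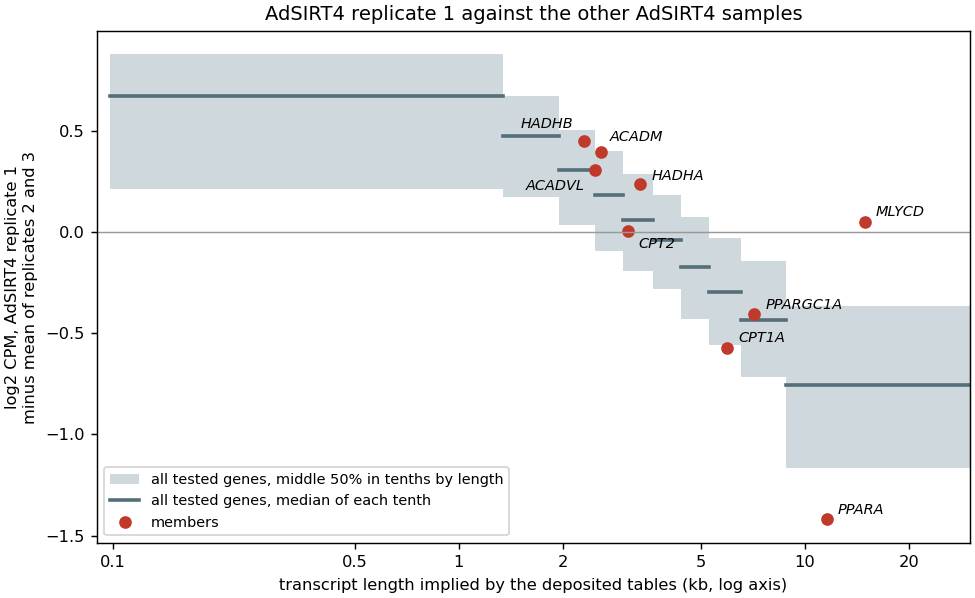
Difference in log2 CPM between AdSIRT4 replicate 1 and the mean of the other AdSIRT4 replicates against the transcript length implied by the deposited tables (log axis, cut at 30 kb), with members as red points and all tested genes as the median and middle 50% of each of 10 length classes of 1747 genes. Short members lie above 0 and long members below, except MLYCD at 14.97 kb, which lies at 0.05.

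Levels of different genes were compared only per transcript length, in the second deposited table, which was read as FPKM. In AdCtrl cells the enzymes of the cycle were the most abundant members, with ACADVL at 68.9 ± 2.67 FPKM (SD, n = 3), HADHA at 56.7 ± 0.185, HADHB at 42.9 ± 0.973 and ACADM at 29.4 ± 1.58. CPT2 followed at 8.46 ± 0.449, PPARA at 6.99 ± 0.329, PPARGC1A at 6.82 ± 0.273 and CPT1A at 3.50 ± 0.124 FPKM. MLYCD was the least abundant at 0.885 ± 0.034 FPKM, and the mean of ACADVL was 77.8 times that level. The place of MLYCD rests on an implied length of 14.97 kb. In AdSIRT4 replicate 1, MLYCD did not follow the trend of transcripts that long. Whether the expressed transcript is shorter was not tested. Neighbours in this order did not overlap between their AdCtrl samples, except PPARA and PPARGC1A. In AdSIRT4 cells the order was the same but for that pair, with PPARGC1A at 6.05 ± 1.26 and PPARA at 4.91 ± 2.42 FPKM, and MLYCD was at 0.807 ± 0.031 FPKM.

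**Figure D4:**
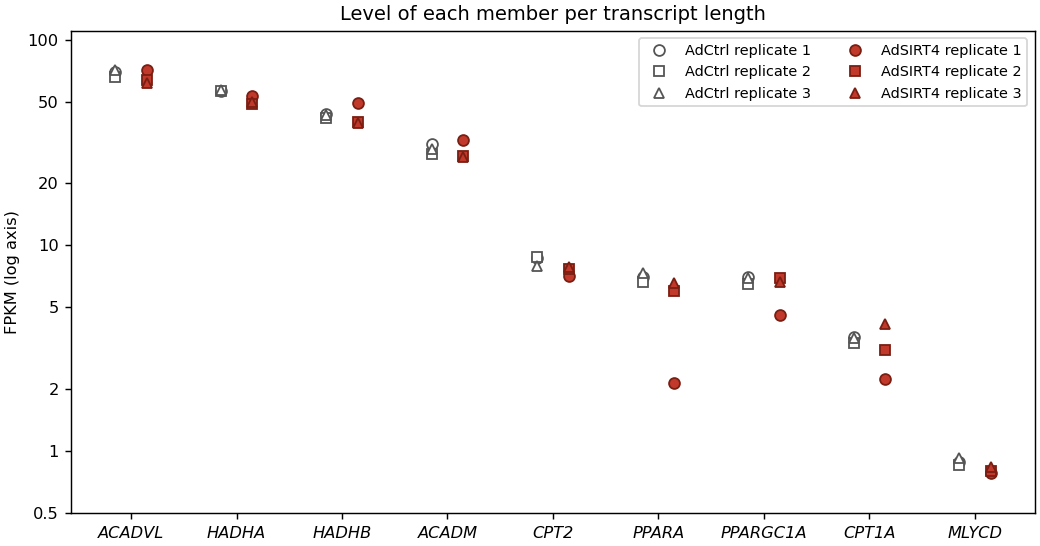
Level of each member per transcript length in each sample, in FPKM on a log axis, ordered by the AdCtrl mean, with open symbols for AdCtrl and filled symbols for AdSIRT4. ACADVL at about 69 FPKM and MLYCD below 1 FPKM mark the ends of the order, and PPARA and PPARGC1A overlap in AdCtrl cells.

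The wider pathway was described with 8 lists from general knowledge that hold 81 genes, the members included, of which 70 had enough counts for a test. With all samples, 0 of 70 passed at an adjusted p under 0.05 in edgeR and 6 had an unadjusted p under 0.05, a share close to the 7.93% of all tested genes. Their median log2 fold change was -0.03, with 29 above 0 and 41 below. FABP1, a fatty acid binding protein, and CYP4A11, a fatty acid ω-hydroxylase, had 0 counts in every sample. Without AdSIRT4 replicate 1, 10 of the 70 genes were called by edgeR, 2 higher and 8 lower, where 6.71% of all genes were called and 3.34% were lower.

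Of the 8 lists, that of mitochondrial β-oxidation had the largest shift in its median when that library was left out. With all samples, 9 of its 16 tested genes had a fold change above 0 and 7 below, with a median of 0.02. Without AdSIRT4 replicate 1, 1 was above and 15 were below 0, with a median of -0.22, and 4 fell past the threshold in edgeR, beside 3.34% of all genes. Beside HADHA these were ECI1 and ECI2, isomerases that handle double bonds of unsaturated fatty acids, and DECR1, a reductase of the same route, all chosen for naming once their values were known. ECI1 was at 84.8, 78.5 and 75.8 CPM in AdCtrl and at 116.3, 62.6 and 63.2 CPM in AdSIRT4 cells, the widest such swing of the 3. Its log2 fold change was 0.02 with all samples and -0.35 without replicate 1 (edgeR, adjusted p = 0.983 and 0.00802).

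In AdSIRT4 replicates 2 and 3, 14 of the 16 genes lay below every AdCtrl sample, beside 20.7% of all tested genes, and in all 16 replicate 1 was above the other AdSIRT4 replicates. How often replicate 1 is above the other AdSIRT4 replicates over all tested genes was not counted. The genes of this list have short transcripts, from 1.00 to 3.49 kb with a median of 2.39 kb. In the length classes that hold these lengths, replicate 1 was higher by a median of 0.06 to 0.67 over all genes. After removal of the length trend with the replicate block, 14 of 16 were below 0 with a median of -0.05, and 0 passed. In that fit 8588 of the 17720 tested genes were below 0, with a median of 0.008. Whether the lower level in replicates 2 and 3 or the higher level in replicate 1 represents the condition cannot be told apart with these samples.

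**Figure D5:**
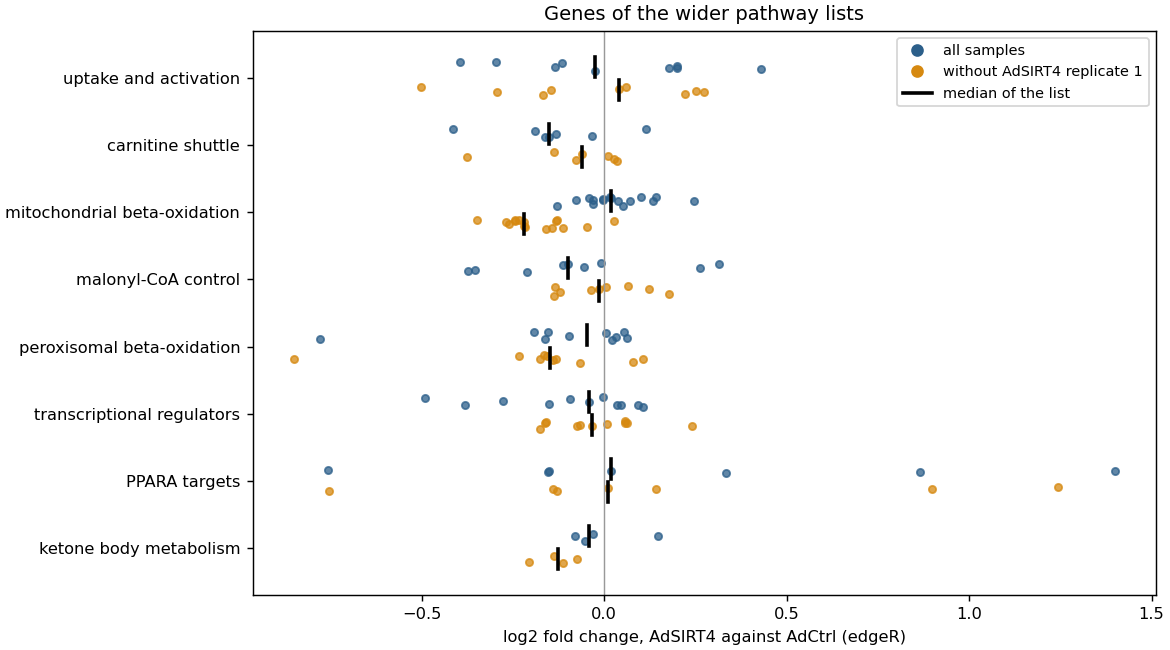
Log2 fold change (edgeR, AdSIRT4 over AdCtrl) of each tested gene in the 8 pathway lists, with all samples (blue) and without AdSIRT4 replicate 1 (orange), the black bar giving the median of the list and the height within a row being arbitrary. The mitochondrial β-oxidation list moves from a median of 0.02 to -0.22, and the carnitine shuttle from -0.15 to -0.06. The median of the PPARA targets stays near 0, while single genes of that list run from -0.76 to 1.40 with all samples.

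Of the other lists, the carnitine shuttle had 1 gene above and 6 below 0 with all samples (median -0.15) and 3 above and 4 below without replicate 1 (median -0.06). The malonyl-CoA list had 2 above and 7 below 0 (median -0.10) with all samples, and 4 above and 5 below (median -0.01) without that replicate. Uptake and activation had medians of -0.02 and 0.04, peroxisomal β-oxidation of -0.05 and -0.15, the transcriptional regulators of -0.04 and -0.03, the PPARA targets of 0.02 and 0.01, and ketone body metabolism of -0.04 and -0.13. None of these lists had a gene past the threshold with all samples.

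The 6 genes outside the members with the smallest p were picked for that p, so their values are a description, and none had an adjusted p under 0.05 with all samples. AMACR, a racemase that prepares branched-chain fatty acids for peroxisomal β-oxidation, was at 48.9, 45.7 and 40.7 CPM in AdCtrl and at 28.8, 25.9 and 24.3 CPM in AdSIRT4 cells. Here replicate 1 lay with the other AdSIRT4 samples, well below the controls. The log2 fold change of AMACR was -0.78 (95% interval -1.05 to -0.51; edgeR, adjusted p = 0.255), and without replicate 1 it fell by 0.85 on the log2 scale (adjusted p = 0.000503).

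CRAT, which interconverts short-chain acyl-CoA and acylcarnitine, was at 37.7, 36.9 and 36.8 CPM in AdCtrl and at 26.2, 28.6 and 28.9 CPM in AdSIRT4 cells. The groups were far apart relative to their spread. For CRAT the log2 fold change was -0.41 (edgeR, adjusted p = 0.494), and -0.37 without replicate 1 (adjusted p = 0.00769). PDK4, a kinase that restrains pyruvate oxidation and a PPARα target, was at 29.5, 21.3 and 21.9 CPM in AdCtrl and at 14.1, 15.2 and 13.7 CPM in AdSIRT4 cells. The AdSIRT4 samples were again all lower, with AdCtrl replicate 1 the highest control. PDK4 had a log2 fold change of -0.76 with all samples and -0.75 without replicate 1 (edgeR, adjusted p = 0.469 and 0.0199).

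VNN1, a pantetheinase and PPARα target, was in contrast higher in every AdSIRT4 sample, at 21.4, 18.8 and 27.7 CPM against 10.8, 13.1 and 13.4 CPM in AdCtrl. Its log2 fold change was 0.87 with all samples and 0.90 without AdSIRT4 replicate 1 (edgeR, adjusted p = 0.481 and 0.0268). PRKAG2, a regulatory subunit of AMP-activated protein kinase, had a log2 fold change of 0.31 with all samples and 0.18 without replicate 1 (edgeR, adjusted p = 0.612 and 0.0913). ANGPTL4, a secreted lipoprotein lipase inhibitor and PPARα target, rested on 4 to 28 counts per sample and gave a log2 fold change of 1.40 with a wide interval of 0.46 to 2.34 (edgeR, adjusted p = 0.519), and 1.24 without replicate 1.

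The PPARα targets named above lay on both sides of 0, with PDK4 lower and VNN1 and ANGPTL4 higher. Beside AMACR, CRAT, PDK4, VNN1 and the mitochondrial genes above, the fit without replicate 1 called ACSL1, which activates long-chain fatty acids to CoA esters, at 0.27 (edgeR, adjusted p = 0.0147). It also called SCP2, a peroxisomal thiolase and sterol carrier, at -0.23 (adjusted p = 0.0259). Both were likewise chosen with their values in view.

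The genes most like MLYCD over the 6 samples, by Pearson's correlation of log2 CPM and as a description, were AREG (r = 0.994), PRRT1B (0.994) and ABCB9 (0.993), and 43 of 17719 genes exceeded 0.95. Correlation does not take the size of a difference into account. AREG was at 26.6, 23.8 and 28.7 CPM in AdCtrl and at 18.4, 10.7 and 14.3 CPM in AdSIRT4 cells, a larger difference than that of MLYCD. Within the pathway lists the closest to MLYCD were AMACR (0.900), CRAT (0.827) and SLC27A1 (0.809). The 6 samples form only 2 groups and the genes share the same libraries, so a high r is a description of these samples only.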

How the data were processed

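RNA of 6 HK2 samples (AdCtrl and AdSIRT4, 3 each) was sequenced after poly-A selection. Per the labels, the submitters' processing notes name fastp 0.21.0, HISAT2 2.1.0, StringTie 2.1.5, DESeq2 1.30.1 and hg38. The authors deposited raw counts per gene without normalization. They also deposited a second table without a named unit, taken here to be FPKM. Lengths derived from both tables were constant within 5% for 11273 of 14692 genes.

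Counts were tested with edgeR 4.0.16 in R 4.3.3 (filterByExpr with a minimum count of 10, TMM, robust quasi-likelihood fit) with Benjamini-Hochberg adjustment over all tested genes at 0.05. CPM are these counts scaled to TMM-adjusted library totals. Totals were 41537353 to 85684748, and intervals cover only the spread between samples. Alternatives were DESeq2 1.42.0, other scalings and filters, limma 3.58.1 on voom values or on log2(FPKM + 1), removal of a length trend (lowess span 0.3), a replicate block, and each sample left out. The procedure was run on simulated data whose changes were larger than those of the members. How well changes as small as those of the members are recovered was not tested. Deviations from group means were correlated across genes. They correlated at 0.178, 0.159 and 0.176 for samples with the same replicate number, and at -0.188 to 0.030 for the others. The replicate numbers may therefore pair the samples. Only the fits with the replicate block use this pairing. The reported fit and the permutation tests treat the samples as unpaired.

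The members and lists were chosen with earlier results of these data known. Genes named were the 9 members, SIRT4, the 6 other pathway genes with the smallest p, and a fixed set with ACACA, ACACB, SLC25A20, PDK4 and ANGPTL4, of which some members are not reported here. Likeness to MLYCD gave 3 genes of all and 3 of the lists.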

Additional observations from a re-analysis of the deposited data

How the results depend on the processing

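Under the replicate block, which pairs samples by number, 1 gene of all passed and no call of a member changed. Genes called numbered 2 in the reported fit, against 118 with DESeq2, 5 without a filter, 4 with at least 10 counts in every sample, 12 with the length trend removed, 6 with that and the block, 1685 with voom quality weights, 0 for limma on log2(FPKM + 1) with or without the block, 1 with a pseudocount of 0.1, and 5 among genes of mean FPKM from 1 upward. With each sample left out, they ran from 0 (with any AdCtrl replicate left out, where SIRT4 lost its call too) to 1227 (without AdSIRT4 replicate 1), and members called from 0 to 1. The 1 member, HADHA, was called also under voom quality weights.

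MLYCD turned to 0.12 with the length trend removed and to 0.074 with the block added, and lay between -0.13 and -0.061 otherwise, with adjusted p from 0.241 to 0.971. Its standard error was 0.231 and 0.176 in these trend fits, against 0.090 in the reported fit. In AdSIRT4 replicate 1, MLYCD did not follow the trend that is removed, at 0.05 against a median of -0.76 in its length class. ACADM and HADHB turned to -0.035 and -0.032 with the trend removed, -0.035 and -0.034 with the block added, -0.12 and -0.12 under voom, -0.029 and -0.011 for limma on log2(FPKM + 1), with the block and among genes of mean FPKM from 1 upward too, and -0.030 and -0.011 with a pseudocount of 0.1. With samples left out, ACADM ran from -0.13 to 0.092, HADHB from -0.13 to 0.12, ACADVL from -0.14 to 0.037 and CPT1A from -0.36 to 0.010. For the trend, voom and limma fits the cause was not tested. CPT2, HADHA, PPARA and PPARGC1A were below 0 in all 20 fits.

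The sign turned without AdSIRT4 replicate 1 for ACADM, HADHB and CPT1A, without AdCtrl replicate 3 for ACADM, and without AdSIRT4 replicate 2 or 3 for ACADVL. No member had fewer than 489 counts in a sample. Without AdSIRT4 replicate 1, standard errors were smaller, at 0.052 instead of 0.344 for PPARA and 0.052 instead of 0.105 for HADHA.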
